A study of Mus musculus with 8 samples.

Results

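Aggrecan, its link protein, the 4 matrilins, cartilage oligomeric matrix protein and lubricin were followed through the cell types of the newborn petrous temporal bone (PTB), the skull bone that houses the inner ear. The genes are Acan, Hapln1, Matn1, Matn2, Matn3, Matn4, Comp and Prg4, 8 of the 32285 features of the count tables, and each symbol was found once. They were chosen by symbol, with earlier results of these data known. Their unique molecular identifiers (UMIs, 1 per captured RNA molecule) were summed per library over the nuclei of each annotated cell type and expressed per 1000000 UMIs of those nuclei (CPM).

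The 4 PTB libraries came from single-nucleus RNA sequencing of postnatal day 5.5 (P5.5) mice, 2 from wild-type (WT) mice and 2 from Tbx1+/- littermates, which are heterozygous for the T-box transcription factor Tbx1 in every cell. The study used mice of both sexes, with strains backcrossed to C57BL/6J. Each library pooled the bones of 5 mice, so n is 2 pools per genotype, and the study describes 2 batches of animals without saying which replicate number belongs to which batch. The study asked how loss of 1 Tbx1 allele alters the bone around the paraflocculus and flocculus (PF/F), 2 lobules of the cerebellum. The 4 PF/F libraries, 2 WT and 2 Tbx1+/-, also pooled 5 mice each at P5.5 and enter here only at the end.

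Cartilage resists compression because aggrecan, a very large proteoglycan loaded with chondroitin sulfate chains, is held in aggregates along strands of hyaluronan. The link protein encoded by Hapln1 pins each aggrecan to the hyaluronan. Matrilins and COMP are multi-subunit adaptor proteins that connect these aggregates with collagen fibrils, and lubricin, the product of Prg4, is secreted at the joint surface and lowers friction. Matrilin-1 and matrilin-3 are the cartilage forms, whereas matrilin-2 and matrilin-4 are made in a wider range of tissues. In the newborn PTB, the cartilage of the otic capsule is being replaced by bone.

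The annotation holds 31076 PTB nuclei in 15 types, with 5981 to 9977 nuclei per library. The study also found immune cells and neurons among its bone nuclei, which have no label here. A gene's highest type is thus the highest of these 15. They comprise 6 chondrocyte progenitor types (CP1 to CP6), matured chondrocytes, a class named hypertrophic chondrocyte/Osteoblasts, osteoblasts, matured osteoblasts/osteocyte, 4 connective tissue types (CT1 to CT4) and osteoclasts. The libraries held 66835028 to 88677309 UMIs, and the median annotated nucleus had 3853 to 4758 UMIs. Pairs of libraries shared 11 to 26 barcodes, at most 0.405% of the smaller library. Tbx1 itself was at 38.9 and 39.4 CPM in the WT libraries and at 26.3 and 35.7 CPM in the Tbx1+/- libraries over all annotated nuclei.

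The labels were compared with marker genes. In matured chondrocytes 8 chondrocyte markers, none of them a member (Sox9, Cnmd and genes of collagens II, IX and XI), summed to 9852 to 20670 CPM, against 10420 to 11050 CPM in osteoblasts and 8042 to 9610 CPM in CP5. The lowest value of matured chondrocytes was that of WT library 2, so the ranges of matured chondrocytes and osteoblasts overlapped. Most of the sum in osteoblasts was Col11a1, highest there at 8453 ± 235 CPM against 7364 ± 2230 CPM in matured chondrocytes (SD, n = 4). Col2a1, Col9a2, Col11a2, Cnmd and Sox9 were highest in matured chondrocytes, and Col9a1 and Col9a3 in CP5. Osteoclasts stood apart on 6 osteoclast markers, with 9255 to 11270 CPM against at most 2914 CPM elsewhere, a value reached in CT4, where these markers summed to 1697 to 2914 CPM. In CP1, 7 osteoblast markers summed to 14180 to 15670 CPM, against 12630 to 14440 CPM in the class named hypertrophic chondrocyte/Osteoblasts. The chondrocyte markers summed to 3287 to 3921 CPM in CP1. In CP6, 4 neuronal markers summed to 1576 to 1834 CPM, against at most 486 CPM elsewhere. In CT2, 4 endothelial markers summed to 205 to 259 CPM, against at most 128 CPM elsewhere. Whether the labels of CP1, CP6 and CT2 hold was not tested. Markers of connective tissue were highest in CT1, at 3814 to 5888 CPM. In CT3, at 1403 to 2058 CPM, and in CT4, at 1077 to 1645 CPM, they were no higher than in CP2, at 1787 to 2670 CPM, so these markers do not set CT3 and CT4 apart. Osteoclasts come from the blood lineage and do not make cartilage matrix, so the level of each of the 8 genes in osteoclasts is given as a background, which includes free RNA since the counts carry no correction for it. Since the types were clustered on all genes, differences between types are descriptions without a test.

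Sequence before the RefSeq transcription start is shown for 4 genes. Their level was highest in matured chondrocytes, and the RefSeq table on GRCm38.p6 held an entry for each. That table held 5 of the 8 genes. Each run covers the 250 bases before the RefSeq start, 5′ to 3′, and all 4 lie on the plus strand. The intervals are chr7:79052976-79053225 for Acan, chr13:89540386-89540635 for Hapln1, chr4:130944135-130944384 for Matn1 and chr12:8947679-8947928 for Matn3. The Hapln1 run lies inside the GENCODE span of that gene, chr13:89539796-89611652, so GENCODE and RefSeq place its start differently. Capitals mark the GC box, GGGCGG, on either strand, which reads CCGCCC where it lies on the other strand.

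Acan: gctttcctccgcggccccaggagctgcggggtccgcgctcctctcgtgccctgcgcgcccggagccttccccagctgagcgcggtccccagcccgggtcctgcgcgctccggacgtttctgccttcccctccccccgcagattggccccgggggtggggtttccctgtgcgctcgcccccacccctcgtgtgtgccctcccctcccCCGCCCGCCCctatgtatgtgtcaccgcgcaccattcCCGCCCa
Hapln1: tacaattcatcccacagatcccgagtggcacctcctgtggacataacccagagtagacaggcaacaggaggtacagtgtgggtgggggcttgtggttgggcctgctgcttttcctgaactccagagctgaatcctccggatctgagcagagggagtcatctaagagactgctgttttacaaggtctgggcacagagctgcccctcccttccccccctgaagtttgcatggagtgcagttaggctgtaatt
Matn1: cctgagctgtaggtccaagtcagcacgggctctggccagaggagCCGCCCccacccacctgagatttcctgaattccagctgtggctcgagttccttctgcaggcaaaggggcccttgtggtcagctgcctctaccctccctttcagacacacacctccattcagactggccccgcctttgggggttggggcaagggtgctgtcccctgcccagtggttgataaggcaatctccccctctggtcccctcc
Matn3: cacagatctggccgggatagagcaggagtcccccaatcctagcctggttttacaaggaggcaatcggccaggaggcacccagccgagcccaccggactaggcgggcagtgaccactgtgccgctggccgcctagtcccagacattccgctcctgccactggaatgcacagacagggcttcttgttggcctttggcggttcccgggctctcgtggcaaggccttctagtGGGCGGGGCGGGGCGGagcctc

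Aggrecan's promoter held 3 GC boxes in the last 44 bases, of which 2 share bases, and Matn3 held 3 overlapping ones. Matn1 held 1, at 206 bases before the start, and Hapln1 held none, in a run that GENCODE places inside the gene. A GC box was found in 32.7% of all 32851 promoters of the table over the same 250 bases. The SOX cores ACAAAG and ACAATG, each searched on both strands, were found in none of the 4, and 25.2% of all promoters held at least 1 of them. TATAAA on the gene's own strand was found in none of the 4 and in 7.59% of all promoters. The base composition differed among them, with 74.4% G or C for Acan and 54.4% for Hapln1, against a median of 52.4% over the table.

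**Figure D1:**
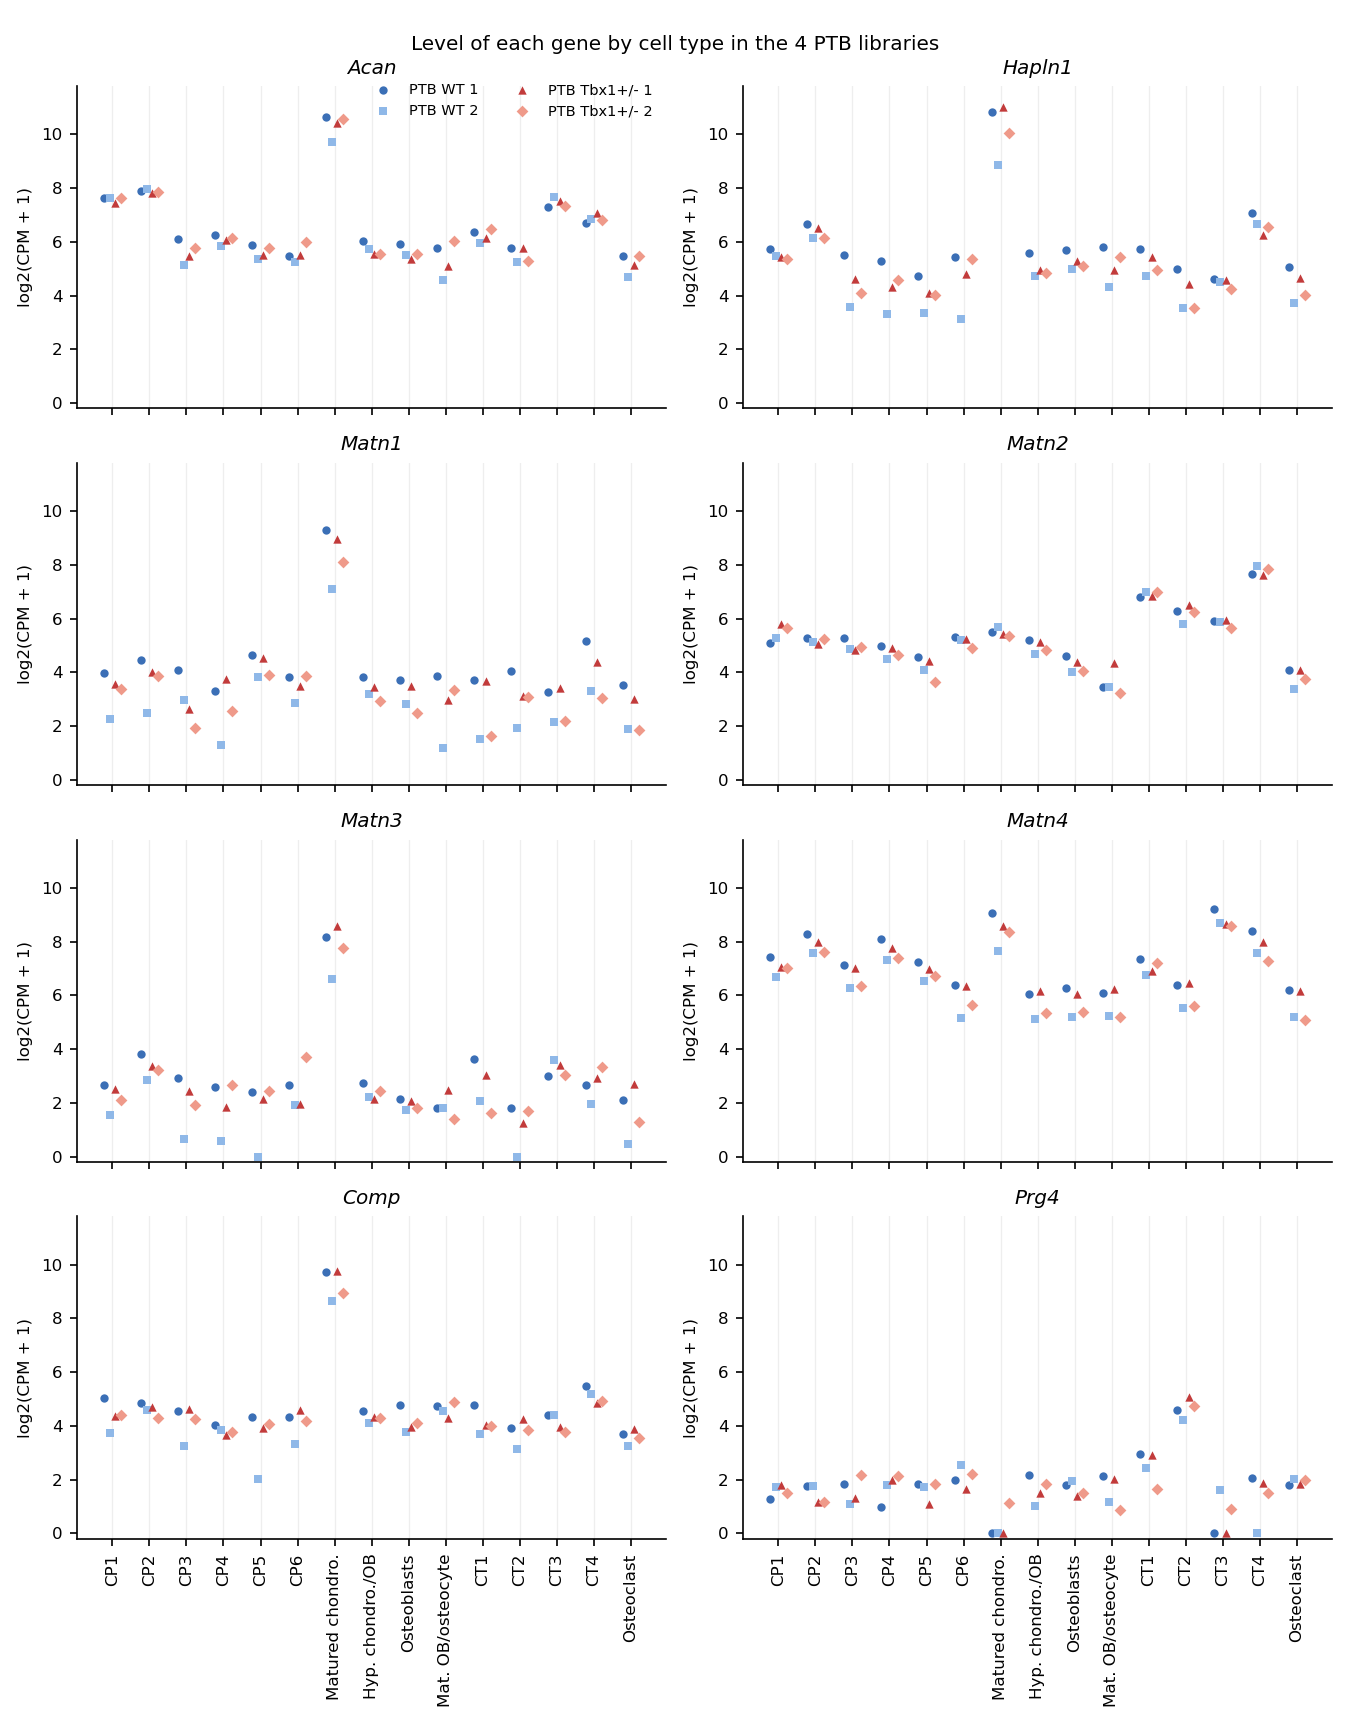
Each panel plots 1 gene, with cell type on the horizontal axis and log2(CPM + 1) on the vertical axis, and each point is 1 of the 4 PTB libraries. Acan, Hapln1, Matn1, Matn3 and Comp peak in matured chondrocytes in every library, Matn4 in CT3, Matn2 in CT4 and Prg4 in CT2.

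Acan, the gene of the aggrecan core protein, which lies at chr7:79053483-79115099 on GRCm38 (plus strand, ENSMUSG00000030607), reached 1598 and 835 CPM in matured chondrocytes of the WT libraries and 1373 and 1524 CPM in those of the Tbx1+/- libraries. WT library 2 was the lowest and the genotypes overlapped. The mean of 1333 ± 345 CPM (SD, n = 4) stood 33.2-fold to 39.7-fold above the osteoclast level of the same library, which was 25.2 to 43.9 CPM. The order of types below it was CP2 at 234 ± 11.7 CPM, CP1 at 191 ± 12.5 CPM, CT3 at 174 ± 21.0 CPM and CT4 at 115 ± 13.7 CPM (SD, n = 4). CP2 was above CP1 in 4 of 4 libraries, whereas CP1 was above CT3 in only 2 of 4, so the order of CP1 and CT3 is not fixed by these data.

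The other progenitors carried less Acan. CP4 had 67.2 ± 8.29 CPM, CP3, CP5 and CP6 had means of 49.5, 49.1 and 46.9 CPM, and in the lowest library CP6 was 1.02-fold the osteoclast level. Acan in CP5 was 58.2 and 40.0 CPM in the WT libraries and 44.6 and 53.6 CPM in the Tbx1+/- libraries, 1.22-fold to 1.59-fold the osteoclast level. CP5 was at the same time the progenitor type richest in collagen II and SOX9. Col2a1, the chain of type II collagen, was at 1818 ± 227 CPM in CP5 against 955 ± 140 CPM in CP2 and 699 ± 109 CPM in CP1. Sox9, a transcription factor required for cartilage, was at 101 ± 9.45 CPM in CP5 and at 58.2 ± 7.21 CPM in CP2 (SD, n = 4). Thus among the progenitors the types with the most Acan were not those with the most Col2a1.

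This was expressed as a ratio of UMIs within each library, in which free RNA of both genes is included. For every 1000 UMIs of Col2a1, matured chondrocytes had 374 ± 60.6 UMIs of Acan, CP1 280 ± 57.3 and CP2 249 ± 41.8 (SD, n = 4). CP5 had 26.9 ± 1.74, with 24.7 to 28.4 in the 4 libraries, the lowest mean of the 15 types. CP3 and CP4 had 45.5 ± 8.18 and 46.9 ± 4.61. The means of these 3 were under the ratio in osteoclasts, 107 ± 31.8, as were those of CP6 (63.0), osteoblasts (45.9) and matured osteoblasts/osteocyte (55.4). The widest spread was in CT3, at 307 to 726, where Col2a1 itself, at 258 to 505 CPM, was close to its osteoclast level of 233 to 493 CPM.

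**Figure D2:**
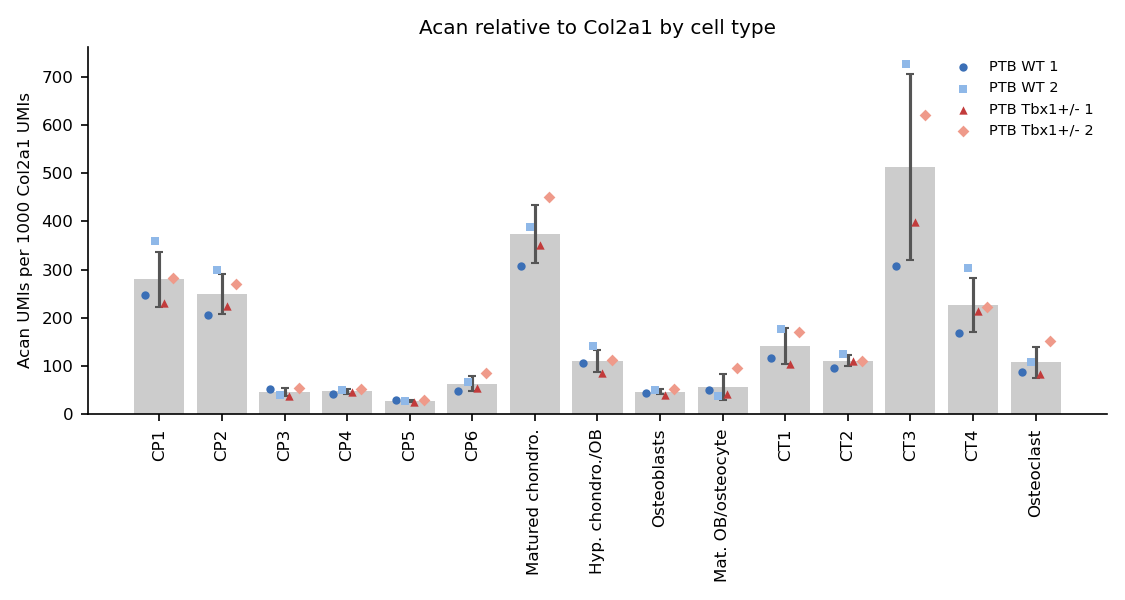
Bars give the mean number of Acan UMIs per 1000 Col2a1 UMIs in each cell type (vertical axis) with the SD over 4 libraries, and points give each library. CP5 has the lowest bar, at 26.9, while matured chondrocytes reach 374 and CP1 reaches 280.

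Hapln1, the gene of link protein, varied between libraries of the same genotype. It (chr13:89539796-89611652, plus strand, ENSMUSG00000021613) was at 1805 and 468.5 CPM in matured chondrocytes of the WT libraries and at 2068 and 1070.0 CPM in those of the Tbx1+/- libraries. Both libraries numbered 1 were above both numbered 2. The mean was 1353 ± 725 CPM (SD, n = 4), or 37.8-fold to 86.5-fold the osteoclast level of the same library. The mean fold was 62.6, and 98.5 when only nuclei with at least 2000 detected genes were kept. CT4 at 101 ± 25.1 CPM and CP2, at 69.7 to 101 CPM, followed, CT4 being the higher in 3 of 4 libraries. Hapln1 in CP5 and CT2, at 16.6 and 18.1 CPM, was at or under the mean of osteoclasts, 21.0 CPM. CP1, which ranked near CP2 for Acan, had 44.7 ± 5.45 CPM of Hapln1, and CT3, at 21.6 ± 2.48 CPM, had no more than osteoclasts in 2 of 4 libraries.

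The cartilage matrilins had a single high type. Matn1 (chr4:130944385-130955475, plus strand, ENSMUSG00000040533) was at 626 and 136 CPM in matured chondrocytes of the WT libraries and at 498 and 272 CPM in those of the Tbx1+/- libraries. As for Hapln1, both libraries numbered 1 lay above both numbered 2. Its mean of 383 ± 220 CPM was 50.1-fold to 106-fold the osteoclast level. The next type, CP5, was at 18.3 ± 5.58 CPM and above osteoclasts in 4 of 4 libraries, but CT4 at 17.8 ± 12.9 CPM could not be ordered against it.

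Matn3 (chr12:8947929-8972028, plus strand, ENSMUSG00000020583) was at 290 and 97.1 CPM in matured chondrocytes of the WT libraries and at 384 and 217 CPM in those of the Tbx1+/- libraries. Both libraries numbered 1 again lay above both numbered 2. Its mean of 247 ± 121 CPM compares with 9.27 ± 2.89 CPM in CP2, the next type. Background was close to 0, with 8 and 1 UMIs in the osteoclasts of the WT libraries and 15 and 4 UMIs in those of the Tbx1+/- libraries, so the fold over osteoclasts, 69.6 to 251, rests on few counts. In matured chondrocytes lay 35.8% of all Matn3 UMIs of annotated nuclei and 30.1% of those of Matn1. The type holds 1.30% of all UMIs of annotated nuclei.

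The other matrilins were highest in CT3 and CT4. Matn4 was highest in CT3, with 591 and 414 CPM in the WT libraries and 400 and 382 CPM in the Tbx1+/- libraries. Both WT values were above both Tbx1+/- values, the nearest at 414 and 400 CPM, but the change was not called. The share of all genes without such an overlap was not counted. Of the Matn4 UMIs of annotated nuclei, 30.7% lay in CP1 and CP2 and 20.9% in CP3 to CP6. CT3 and CT4 held 16.8%, and CT1 and CT2 held 8.62%. The same groups, in this order, held 19.3%, 19.6%, 5.71% and 10.1% of the UMIs of all genes. The share in CP3 to CP6 was thus near that of all genes. Matured chondrocytes, with 364 ± 142 CPM, came after CT3 (446 ± 97.1 CPM) in 4 of 4 libraries, but the smallest gap was 16.1 CPM. CP2 at 238 ± 58.2 CPM, CT4 at 235 ± 81.4 CPM and CP4 at 203 ± 52.6 CPM formed the next tier, and CP2 was above CT4 in only 1 of 4 libraries. Matn4 in osteoclasts was at 53.1 ± 22.1 CPM, with 73.1 and 71.3 CPM in the libraries numbered 1 against 35.3 and 32.8 CPM in those numbered 2. In CP5, Matn4 was at 118 ± 24.5 CPM, 1.74-fold to 3.21-fold the osteoclast level, where Acan was 1.22-fold to 1.59-fold.

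Matn4 (chr2:164389393-164405160, minus strand, ENSMUSG00000016995) shares 2020 bases with Rbpjl on the opposite strand, and Slpi on its own strand begins 297 bases beyond its 3′ end. These neighbours were also the genes whose levels followed Matn4 most closely over the 15 types, with Pearson's r of 0.987 for Slpi and 0.967 for Rbpjl, computed on log2(CPM + 1) of type means among 13126 genes that reached 10 CPM in a type. Both were highest in CT3, at 32.4 and 49.0 CPM, as was the next gene, Camk4 (r = 0.94). Whether reads are shared between these neighbours was not tested.

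Matn2 (chr15:34306677-34436273, plus strand, ENSMUSG00000022324) was highest in CT4, with 201 and 249 CPM in the WT libraries and 195 and 229 CPM in the Tbx1+/- libraries. The genotypes overlapped and the spread was small, 219 ± 25.0 CPM (SD, n = 4). These levels were 12.1-fold to 26.8-fold that of osteoclasts, 13.5 ± 3.24 CPM. CT1 followed with 120 ± 9.36 CPM and CT2 with 74.3 ± 14.4 CPM, each step being present in 4 of 4 libraries. CT3 was below CT2 in 3 of 4 libraries. Matured chondrocytes, at 44.1 ± 4.87 CPM, and CP1, at 43.8 ± 9.84 CPM, could not be ordered. Of the Matn2 UMIs of annotated nuclei, 24.4% lay in CT1 and CT2 and 19.1% in CT3 and CT4. These groups held 10.1% and 5.71% of the UMIs of all genes. Matured chondrocytes held 1.47%, near their 1.30% for all genes. CP1 and CP2 held 19.0%, against 19.3% for all genes. The hypertrophic class, osteoblasts and matured osteoblasts/osteocyte together held 20.4%, against 37.1% for all genes. A gene on the minus strand, 9430069I07Rik, overlaps Matn2 over 8822 bases, and Gm8546 on the minus strand overlaps Hapln1 over 1264 bases.

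**Figure D3:**
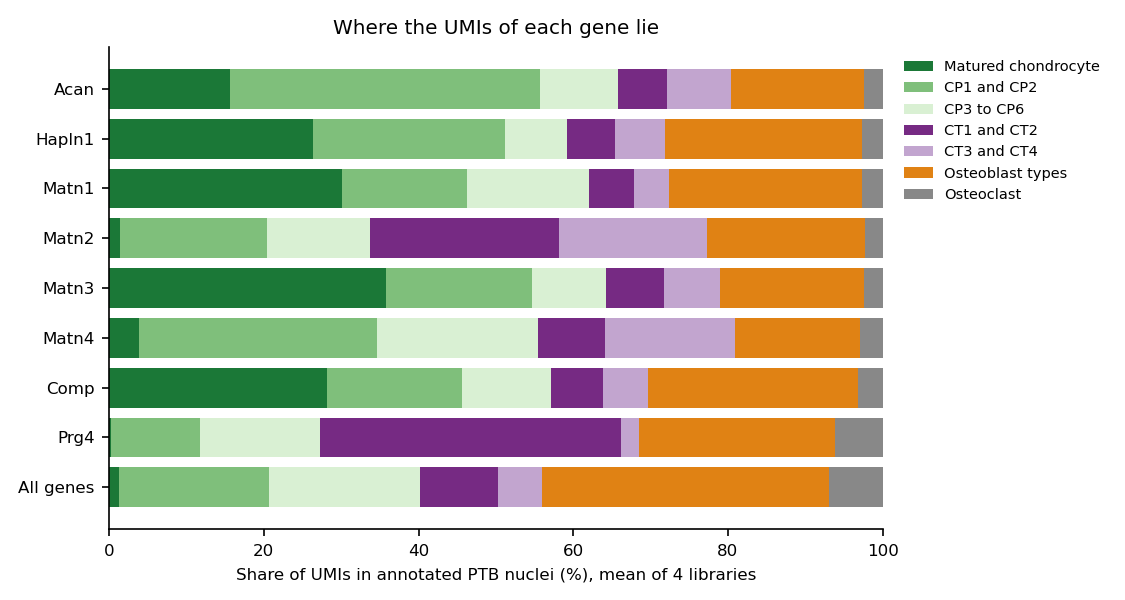
Each bar divides the UMIs of 1 gene in annotated PTB nuclei among groups of cell types (horizontal axis, percent, mean of 4 libraries), and the lowest bar does the same for all genes together. Matured chondrocytes hold 1.30% of all UMIs but 35.8% of those of Matn3, whereas CT1 and CT2 hold 39.0% of those of Prg4.

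COMP had the pattern of the cartilage matrilins. Comp (chr8:70373558-70382066, plus strand, ENSMUSG00000031849) was at 841 and 405 CPM in matured chondrocytes of the WT libraries and at 875 and 498 CPM in those of the Tbx1+/- libraries. Both libraries numbered 1 were above both numbered 2. The mean of 655 ± 238 CPM was 46.6-fold to 69.4-fold the osteoclast level, and CT4, the next type, had 34.0 ± 7.29 CPM. Comp is also known from tendon, for which the annotation has no type. The 5 tendon and ligament markers, Tnmd and Scx among them, summed to 133 to 265 CPM in matured chondrocytes, 255 to 281 CPM in CP2 and 147 to 299.5 CPM in CT1, and reached at most 212 CPM in the other types.

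Lubricin was rare. Prg4 (chr1:150449412-150466165, minus strand, ENSMUSG00000006014) shares 524 bases with Tpr on the plus strand, and whether reads are shared was not tested. Prg4 was highest in CT2, with 28 and 25 UMIs in the WT libraries and 47 and 34 UMIs in the Tbx1+/- libraries. These are 23.2 and 17.7 CPM against 33.1 and 25.6 CPM. Both Tbx1+/- values were above both WT values, on few UMIs, but the change was not called. The share of all genes without such an overlap was not counted here either. The mean of 24.9 ± 6.39 CPM was 5.71-fold to 12.9-fold the osteoclast level of 2.78 ± 0.287 CPM. CT1, at 5.00 ± 2.19 CPM, was next and lay above CP6 in 2 of 4 libraries. At 2000 UMIs per nucleus, 2.94 ± 0.798% of CT2 nuclei held a Prg4 UMI against 0.333 ± 0.276% of osteoclasts (4.53% and 1.75% unthinned).

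Matured chondrocytes had almost no Prg4. A UMI was found in 1 of the 4 libraries, Tbx1+/- library 2, at 1.17 CPM (95% exact Poisson interval up to 6.51 CPM). The 0 UMIs of the others allow up to 6.26 CPM in WT library 1, 7.28 CPM in WT library 2 and 18.0 CPM in Tbx1+/- library 1, with a limit of 3 counts per library. Intervals and limits cover counting error only. The mean of CT2 lies above all of these limits and the mean of osteoclasts below each of them. Summed over the 4 libraries, the 1 UMI gives 0.522 CPM, with an exact Poisson interval of 0.0132 to 2.91 CPM.

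Nuclei of matured chondrocytes differed between libraries of the same genotype. Each nucleus with at least 2000 UMIs was thinned to 2000 UMIs at random, which left 119 and 99 matured chondrocytes of the WT libraries and 40 and 185 of the Tbx1+/- libraries (28, 39, 8 and 69 were shallower and left out). In the libraries numbered 1, 0.840% of the WT nuclei and 0% of the Tbx1+/- nuclei had no UMI of Acan, Hapln1, Matn1, Matn3 or Comp. In those numbered 2, these were 33.3% and 24.3%. The deposited label was kept for these nuclei, so the CPM of matured chondrocytes include them, and whether the label holds for them was not tested. In the libraries numbered 2, nuclei with 0 or 1 of these genes had a median of 1 (WT) and 2 (Tbx1+/-) Col2a1 UMIs. Nuclei with 4 or 5 of them had 9 and 12, and osteoclasts with 0 or 1 had 0 in both libraries. At the other end, 4 or 5 of these genes were detected in 37.0% and 47.5% of nuclei of the libraries numbered 1, and in 11.1% and 18.9% of those numbered 2, WT first. The 0 of 40 nuclei allows a share of up to 7.5%.

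Among osteoclasts the share of nuclei with none of the 5 genes was 82.8% to 92.0%, with median depths of 4963 to 7105 UMIs before thinning against 2339 to 2962.5 UMIs in matured chondrocytes. Acan and Hapln1 were found together in 63.0% and 80.0% of matured chondrocyte nuclei of the libraries numbered 1 and in 25.3% and 29.7% of those numbered 2, and in at most 0.726% of osteoclasts. Before thinning, an Acan UMI was seen in 56.5% to 92.5% of matured chondrocyte nuclei and in 11.9% to 18.5% of osteoclasts. After thinning these shares averaged 73.8 ± 18.2% and 6.14 ± 1.82%.

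Some other measures in this type followed the same split, and several of these were split in other types too. Gm42418, a feature that collects ribosomal RNA reads, took 4.06% and 2.71% of UMIs of matured chondrocytes in the libraries numbered 1 and 7.13% and 6.60% in those numbered 2, against 0.825% to 2.36% in the other types. The 8 chondrocyte markers summed to 20670 and 17970 CPM in the libraries numbered 1 and to 9852 and 13330 CPM in those numbered 2. They were split in the other types too, except osteoblasts and matured osteoblasts/osteocyte. In osteoclasts they were at 2120 and 2167 CPM against 1324 and 1720 CPM. Mitochondrial genes took 1.52% and 1.29% against 0.987% and 1.10%. These were split in the other types too, for example at 1.34% and 0.878% against 0.450% and 0.543% in osteoclasts. Ribosomal protein genes did not follow the split in matured chondrocytes, with 4.56% and 3.56% of UMIs against 2.93% and 4.17%. They did in the other types, for example at 2.54% and 2.05% against 1.03% and 1.46% in osteoclasts. Muscle markers, at 317 and 713 CPM against 80.1 and 47.9 CPM, were split in the other types too, for example at 232 and 235 CPM against 41.6 and 20.1 CPM in osteoblasts. They were highest in osteoclasts in 4 of 4 libraries, at 989.5 and 864 CPM against 850.2 and 660 CPM, where the split was small. The split of several members was not confined to matured chondrocytes. The CPM of Acan had no such split there, nor in the sum of all other annotated nuclei (99.1 and 80.5 CPM against 87.5 and 88.5 CPM). The share of matured chondrocyte nuclei with an Acan UMI after thinning, given above, was split. The share of all genes with this order was not counted. Summed over all other annotated nuclei, Matn1 was at 14.7 and 11.1 CPM in the libraries numbered 1 against 5.26 and 7.30 CPM in those numbered 2, Hapln1 at 53.2 and 38.1 CPM against 30.2 and 34.7 CPM, and Matn4 at 162 and 123 CPM against 95.1 and 93.6 CPM. Matn3, at 6.45 and 4.68 CPM against 2.81 and 4.51 CPM, and Comp, at 24.1 and 17.7 CPM against 14.3 and 17.4 CPM, had the same order with a smaller gap. The part of these measures in the levels of Hapln1, Matn1, Matn3 and Comp was not tested.

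Erythroid markers set 1 library apart. They summed to 13310 CPM in matured chondrocytes of WT library 2, where 2 nuclei drew at least 1% of their UMIs from these genes, the higher of them 45.9%, and to 929 to 1195 CPM in the others. Leaving out every nucleus at or above 1% in all libraries gave mean folds over osteoclasts of 36.6 for Acan and 63.9 for Hapln1, against 36.2 and 62.6 with them. Markers of other lineages in matured chondrocytes summed to 10760 to 11600 CPM for osteoblasts, 3410 to 4432 CPM for hypertrophic chondrocytes, 1246 to 1750 CPM for connective tissue, 774 to 1357 CPM for osteoclasts, 444 to 821 CPM for osteocytes and 282 to 438 CPM for Schwann cells. Endothelial, neuronal and immune markers stayed at or under 112 CPM.

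**Figure D4:**
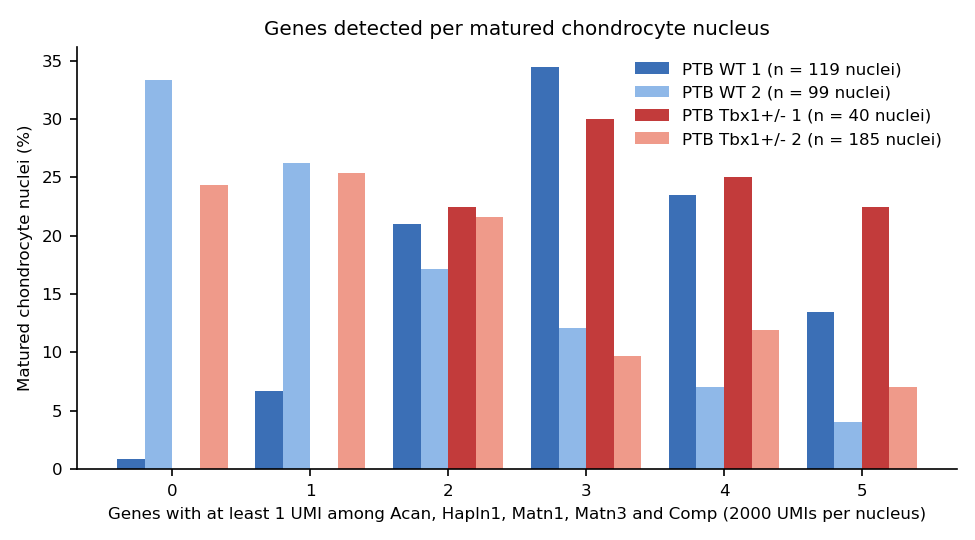
Bars give the percentage of matured chondrocyte nuclei of each PTB library (vertical axis) in which 0 to 5 of the genes Acan, Hapln1, Matn1, Matn3 and Comp had at least 1 UMI after thinning to 2000 UMIs (horizontal axis). In the libraries numbered 1 at most 0.840% of nuclei hold none of the genes, whereas 33.3% (WT) and 24.3% (Tbx1+/-) do in those numbered 2.

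Comp had the pattern most like that of several other members. Over the 15 type means it was the nearest of all 13126 genes to Hapln1 (r = 0.964) and to Matn1 (r = 0.951), and was among the nearest 3 to Matn3 (r = 0.945). Snorc, a small chondrocyte proteoglycan, was nearest to Comp (r = 0.977). The genes nearest to Acan were Ddc (r = 0.935), Npm1 (r = 0.934) and Unk (r = 0.92), and its r with Hapln1 was 0.86. Igfbp7, Ap2a2 and Ech1 were nearest to Matn2 (r = 0.903, 0.898 and 0.894), Atp5g1 and Mif to Matn3 (r = 0.956 and 0.947) and Gm12828, Gm9925 and Lsr to Prg4 (r = 0.894, 0.877 and 0.87). These correlations over 15 points, which share 4 libraries, are descriptions. Gm42418 was also among the nearest 3 genes to Hapln1 (r = 0.952) and Comp (r = 0.968). Levels were not compared between genes, since nuclear 3′ counts that include introns have no common length scale.

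A wider list held 51 genes of aggregate, matrix and sulfation chemistry. Of these, 19 (37.3%) were highest in matured chondrocytes, as were 2254 (17.2%) of all 13126 genes that reached 10 CPM in a type. The list was not held to that limit and includes genes below it, such as Hapln2, Hapln3 and Hapln4, so the 2 shares rest on unlike sets. Of 12 enzymes of the list that build or sulfate the chains of aggrecan, 5 were among the 19 (Xylt1, Csgalnact1, Csgalnact2, Chpf and Chst12). Xylt1, which starts a chain, was at 1193 ± 334 CPM against 63.9 CPM in osteoclasts, and Csgalnact1, which begins the chondroitin sequence, at 557 ± 238 CPM against 22.3 CPM (SD, n = 4). Csgalnact2 was at 33.2 ± 6.05 CPM against 28.6 CPM, and Chpf at 16.6 ± 10.3 CPM against 10.2 CPM and above osteoclasts in 3 of 4 libraries. Chst12 was at 27.2 ± 9.53 CPM against 4.07 CPM. The other 7 were highest elsewhere. Chsy1 and Chst11 were highest in matured osteoblasts/osteocyte, at 523 ± 68.2 CPM and 687 ± 58.2 CPM, against 188 and 658 CPM in matured chondrocytes. Chsy3 was highest in the hypertrophic class, at 439 ± 5.32 CPM against 235 CPM. Xylt2, Chpf2, Chst3 and Chst15 were highest in CT2, osteoblasts, CP5 and CT4.

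Genes that supply the sugar and the sulfate were also among the 19. Ugdh, which makes a sugar nucleotide for the chains, was at 316 ± 81.4 CPM in matured chondrocytes against 36.0 CPM in osteoclasts. Papss2, which activates sulfate, was at 225 ± 116 CPM against 57.9 CPM, and the sulfate transporter Slc26a2 at 82.7 ± 33.8 CPM against 42.8 CPM, 1.93-fold (SD, n = 4).

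Other genes of the list peaked elsewhere. The aggrecanase Adamts5 was highest in CT2, at 117 ± 11.6 CPM against 30.4 CPM in matured chondrocytes, as was Adamts15 at 27.3 ± 2.41 CPM. Has2, which makes hyaluronan, was highest in CT1, at 192 ± 42.8 CPM, and the hyaluronan receptor Cd44 in osteoclasts, at 585 ± 33.7 CPM. The other link proteins were nearly absent, the highest mean of any type being 0.442 CPM for Hapln2, 1.88 CPM for Hapln3 and 0.835 CPM for Hapln4. Brevican (Bcan), known as a brain proteoglycan, was at 33.4 ± 1.97 CPM in CP5 and at 3.45 CPM in matured chondrocytes.

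Genotypes were tested in edgeR by quasi-likelihood, with p-values adjusted over all genes tested in a type and calls made at an adjusted p under 0.05 with a change over 1.5-fold. Of 101 tests of the 8 genes over the 15 types, 0 were called. The background was the same, with 0% of all 7719 to 15573 genes tested called in each type, and 0% of 20250 genes over all annotated nuclei. At an unadjusted p under 0.05 edgeR had 4 of the 101 (3.96%), against 3384 of all 187198 tests of the 15 types (1.81%), and the difference was not tested. DESeq2 had 0 of the members at an unadjusted p under 0.05 and 0 calls of them. Over all genes DESeq2 also had 0 calls and few genes at an unadjusted p under 0.05. These ran from 20 of 13343 genes in CP4 to 65 of 13191 in osteoclasts, so the 0 of the members is near that background. None of the 51 genes of the wider list was called by edgeR in any type. In sums over all annotated nuclei, fewer cells of a type and less RNA per cell cannot be told apart. The p-values measure the spread between these pools alone.

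Over all annotated nuclei the levels of Acan were 116 and 96.7 CPM in the WT libraries and 85.8 and 124 CPM in the Tbx1+/- libraries. The Tbx1+/- values lay on both sides of the WT values, and the log2 change was -0.02 ± 0.20 (SE), adjusted p = 1 with edgeR. Part of this spread went with matured chondrocytes, of which the libraries held 147 and 138 (WT) and 48 and 254 (Tbx1+/-). Without that type, Acan was at 99.1 and 87.5 CPM in the WT libraries and at 80.5 and 88.5 CPM in the Tbx1+/- libraries. Hapln1, at 72.4 and 35.6 CPM against 46.5 and 60.1 CPM, also overlapped. For the other 6 genes the log2 changes ran from -0.23 (Matn4, SE 0.28) to 0.22 (Matn3, SE 0.46), with an adjusted p of 1 for each in edgeR.

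Within the highest type of each gene no change passed the test. In matured chondrocytes the log2 changes of Tbx1+/- over WT were 0.26 ± 0.39 for Acan, 0.46 ± 0.54 for Hapln1, -0.03 ± 0.53 for Matn1, 0.56 ± 0.44 for Matn3 and 0.12 ± 0.41 for Comp (SE, 2 libraries each, edgeR). Each had an adjusted p of 1. The changes of Hapln1 depended on WT library 1. Without it, the log2 change of Hapln1 in edgeR was 1.76 in matured chondrocytes and 2.13 in CP6. That fit leaves 1 WT library, which is assumed to vary like the Tbx1+/- libraries. WT library 2, which then stood alone for WT, had 7.65 CPM of Hapln1 in CP6 against 41.9 CPM in WT library 1 and 27.0 and 40.6 CPM in the Tbx1+/- libraries.

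For the members highest in CT types the changes were -0.38 ± 0.20 for Matn4 in CT3, -0.11 ± 0.19 for Matn2 in CT4 and 0.52 ± 0.30 for Prg4 in CT2 (log2, SE, adjusted p of 0.999 or 1 in edgeR). Without WT library 1 the change of Matn4 in CT3 was -0.10. The 4 tests with an unadjusted p under 0.05 were Matn2 in CP1 (0.55 ± 0.16), Matn1 in CP3 (-1.57 ± 0.59), Hapln1 in CT4 (-0.51 ± 0.22) and Acan in hypertrophic chondrocyte/Osteoblasts (-0.38 ± 0.15), with unadjusted p of 0.0121, 0.026, 0.0397 and 0.0447 in edgeR. Matn2 in CP1 was at 33.4 and 37.9 CPM in the WT libraries and at 54.5 and 49.6 CPM in the Tbx1+/- libraries. Matn1 in CP3 rested on 37 and 12 UMIs against 7 and 4 UMIs. Hapln1 in CT4 was at 135 and 102 CPM against 75.2 and 91.9 CPM, and Acan in the hypertrophic class at 64.9 and 52.4 CPM against 45.6 and 45.8 CPM. Each had an adjusted p of at least 0.999 in edgeR. With 2 pools on each side, the smallest p of an exact permutation test is 0.33 (two-sided).

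**Figure D5:**
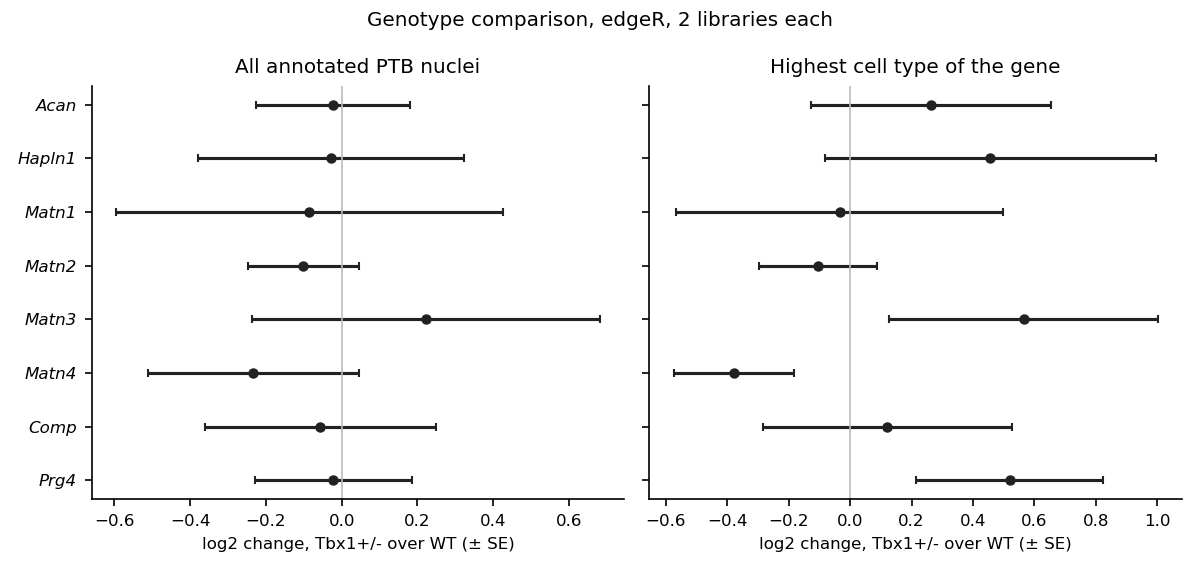
Points give the log2 change of Tbx1+/- over WT with its SE (horizontal axis) for each gene, over all annotated PTB nuclei on the left and in the gene's highest cell type on the right, from edgeR with 2 libraries of each genotype. No change passed the threshold, and the changes on the right run from -0.38 for Matn4 to 0.56 for Matn3.

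In the PF/F, where there is no cartilage, only Matn2 and Matn4 exceeded 5 CPM over all annotated nuclei. Matn4 was highest in oligodendrocytes, at 78.9 ± 12.0 CPM, and Matn2 in the type RL.early (rhombic lip), at 59.2 ± 17.2 CPM (SD, n = 4), with meningeal cells at 41.9 ± 7.04 CPM. Acan, Matn1 and Matn3, at 0.593, 0.144 and 0.114 CPM over all annotated PF/F nuclei, were near 0. These PF/F means take the WT and Tbx1+/- libraries together.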

How the data were processed

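Nuclei were profiled by 3′ droplet sequencing. The deposited values are raw UMI counts per gene, which the authors obtained with Cell Ranger 7.0.0 in intron mode on mm10, before SoupX correction. The deposited annotation (label transfer, then manual curation) supplied the cell types, and other PTB barcodes entered no test. The authors' filters are taken as they stand, and no doublet caller was run.

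Counts were summed per library and type (Python 3.11.15; pandas 2.3.3). Sums were tested in edgeR 4.0.16 under R 4.3.3 (filterByExpr, TMM, quasi-likelihood), after a check on simulated data. A standard error is the size of the log2 change over the root of F. Gene coordinates come from GENCODE vM21 and promoters from RefSeq.

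The members and lists were chosen with earlier results of these data known. Genes named are the 8 members, genes of the 51-gene list that stand for a role, and the 3 genes nearest to each member in pattern. Alternatives were RLE factors, no filter, DESeq2 1.42.0, the replicate block, nuclei with at least 2000 genes, leaving out the 8% of nuclei with the most UMIs (for doublets) or each library, folds from the mean of per-nucleus values and, added after the data were seen, leaving out nuclei with at least 1% erythroid UMIs.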

Additional observations from a re-analysis of the deposited data

Results flagged for a closer look

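Signal of the 8 genes was also present in barcodes and nuclei that entered no test. In PTB barcodes that the annotation leaves out, which held 46.8% to 50.7% of the UMIs of a library, the mean levels over 4 libraries were 74.4 CPM for Acan, 37.4 CPM for Hapln1, 14.6 CPM for Matn1, 38.8 CPM for Matn2, 4.95 CPM for Matn3, 113 CPM for Matn4, 23.6 CPM for Comp and 2.73 CPM for Prg4. Acan, Hapln1, Matn3 and Matn4 were lower there than in annotated nuclei in 4 of 4 libraries, and Matn1 was higher in 4 of 4. In annotated PF/F nuclei the means were 0.593 CPM for Acan, 1.17 CPM for Hapln1, 0.144 CPM for Matn1, 13.8 CPM for Matn2, 0.114 CPM for Matn3, 6.66 CPM for Matn4, 3.59 CPM for Comp and 2.91 CPM for Prg4. Summed over the 4 libraries, the counts were above the limit of 3 that a count of 0 allows. Matn3 in PF/F rested on 20 UMIs, with 0.07115 CPM in its lowest library, which is at that limit. The sources of the signal were not tested. With 2 libraries per group, no test for a single library far from the rest was made.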

How the results depend on the processing

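No member was called with RLE factors, no filter, DESeq2, the replicate block, at least 2000 genes, or without the 8% of nuclei with the most UMIs or the erythroid nuclei. Leaving out 1 library gave 0 to 2 calls, both without WT library 1 (Hapln1 in CP6 and in matured chondrocytes), where edgeR also called up to 206 of all genes and up to 3 of the wider list in a type. Over all genes, edgeR called 0 in each type, 0 to 17 without the filter and 0 to 22 with the replicate block. At an unadjusted p under 0.05 edgeR with the block had 8 of 101 tests of members (7.92%), among them Matn3 and Hapln1 in matured chondrocytes, and 7363 of 187198 tests of all genes (3.93%). Replicate numbers are not tied to batches in the sources used here; deviations of the same-numbered libraries correlated over genes at 0.478 over all annotated nuclei and at 0.156 in matured chondrocytes. Over all annotated nuclei the block turned the sign for Hapln1 (0.0465) and Matn1 (0.0831), and at least 2000 genes did so for Prg4 (0.0613). Leaving out libraries gave log2 changes of -0.30 to 0.22 for Acan, -0.45 to 0.59 for Hapln1, -0.68 to 0.98 for Matn1, -0.23 to 0.0429 for Matn2, -0.27 to 1.015 for Matn3, -0.57 to 0.23 for Matn4, -0.40 to 0.41 for Comp and -0.12 to 0.091 for Prg4. In the highest type, Matn1 turned in DESeq2 (0.0156), with the block (0.32) and without the nuclei of most UMIs (0.0006), and Comp with at least 2000 genes (-0.0547). Leaving out libraries there gave -0.14 to 0.83 for Acan, -0.22 to 1.76 for Hapln1, -0.76 to 1.47 for Matn1, -0.25 to 0.0581 for Matn2, -0.0207 to 1.58 for Matn3, -0.33 to 0.76 for Comp, -0.60 to -0.10 for Matn4 (-0.10 without WT library 1) and 0.34 to 0.72 for Prg4. The causes were not tested. The mean fold over osteoclasts was 36.2 for Acan, 39.9 with at least 2000 genes and 42.7 without the nuclei of most UMIs, and for Hapln1 62.6 and 98.5 with at least 2000 genes. The other 28 folds from other settings moved by less than 1 SD of the libraries. Without the nuclei of most UMIs no fold could be given for Matn3, since a library of osteoclasts had 0 UMIs.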
